A study of Mus musculus with 17 samples.

Results

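The data described here cover 8 genes of the mouse MHC class II system, measured in the spinal cord of mice with targeted experimental autoimmune encephalomyelitis (EAE): H2-Aa, H2-Ab1, H2-Eb1, H2-DMa, H2-Oa, H2-Ob, Cd74 and Ciita. They were chosen by gene symbol, as every probe set of the array that is annotated to 1 of these 8 genes alone. This gave 16 of the 34958 probe sets with 1 gene, and 8 of 18194 genes. H2-Aa had 4 probe sets, H2-Ab1 and Ciita had 3 each, H2-DMa had 2, and H2-Eb1, H2-Oa, H2-Ob and Cd74 had 1 each. A further probe set annotated to both H2-Ob and Gm20506 was left out.

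Total RNA of spinal cord was measured on Affymetrix mouse genome expression arrays, 1 array per sample, in 6 anti-RGMa, 5 isotype control and 6 naïve samples from female C57BL/6 mice. The labels give an age of 8 weeks for every sample and do not say at which stage. Since the EAE mice were sampled 3 weeks and 14 days after immunization, whether the groups were of the same age at sampling is not known. Mice of both EAE groups were immunized with a peptide of myelin oligodendrocyte glycoprotein (MOG) in complete Freund's adjuvant. After 3 weeks they received TNF-α and IFN-γ into the cord at thoracic level 8, and pertussis toxin intravenously. The anti-RGMa group was given a humanized antibody to repulsive guidance molecule-a (10 mg/kg) and the isotype control group the antibody palivizumab (10 mg/kg), from 9 days after the cytokine injection on, and naïve mice were untreated. At 14 days, 4.5 mm of perfused cord around the injection site was taken. The comparisons therefore ask how far class II expression differed between EAE and naïve cord, and whether it differed between the antibody groups 5 days after treatment began.

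MHC class II molecules are pairs of an alpha and a beta chain that show peptides from endosomes to CD4+ T cells, and EAE is a disease driven by such T cells. The chains are assembled on the invariant chain, the product of Cd74, whose remnant is exchanged for antigenic peptide with the help of H2-DM, while H2-O restrains H2-DM. Ciita encodes the transactivator that is recruited to a fixed set of promoter boxes, called W, X and Y, and that is switched on by IFN-γ in many cell types.

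The promoter boxes are shown because they are the elements through which Ciita is known to act on class II promoters. The 6 H2 genes lie together on chromosome 17, between 34092379 and 34316674, whereas Cd74 and Ciita lie on other chromosomes. In the RefSeq promoter windows of build GRCm38.p6 (250 bases before to 50 bases after a gene's start), 5 of the 8 genes were found, with 6 windows. The core of the X box (GCAAC) was followed by the core of the Y box (ATTGG, an inverted CCAAT) after 25 to 28 bases in 4 of the 5 genes. Each stretch is given 5′ to 3′ on the strand of its gene, with both cores in capitals.
H2-Aa, chr17:34287852-34287919, minus strand: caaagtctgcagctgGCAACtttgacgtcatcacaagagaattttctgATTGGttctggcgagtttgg
H2-Eb1, chr17:34305761-34305827, plus strand: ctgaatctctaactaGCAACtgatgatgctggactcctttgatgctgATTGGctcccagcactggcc
H2-Oa, chr17:34092288-34092355, plus strand: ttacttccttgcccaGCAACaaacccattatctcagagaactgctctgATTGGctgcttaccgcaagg
H2-Ob, chr17:34238803-34238867, plus strand: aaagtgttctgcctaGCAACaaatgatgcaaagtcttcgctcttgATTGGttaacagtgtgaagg
The X core began 81 bases before the start of H2-Aa, 91 before that of H2-Eb1, 76 before that of H2-Oa and 87 before that of H2-Ob. The spacing was 28 bases in H2-Aa and H2-Oa, 27 in H2-Eb1 and 25 in H2-Ob. Neither window of H2-DMa held the pair on either strand. Among all 32851 windows of 300 bases, 66 (0.201%) held the pair on either strand, whereas GCAAC alone was found in 35.2% and ATTGG alone in 37.4%. The only other class II gene among the 66 was H2-Eb2. The cores and the spacing were read from these same windows, so that the shares describe the sequences and test nothing.

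All 16 probe sets were higher in both EAE groups than in naïve cord. With the brightest probe set of each gene, the increase was largest for Cd74, H2-Aa and H2-Eb1, at 5.79 to 6.20 on the log2 scale, and smallest for H2-DMa, H2-Ob and Ciita, at 3.05 to 4.41. Other probe sets of the same genes changed this order, as H2-Ab1 1425477_x_at at 8.64 in anti-RGMa and 8.66 in isotype control. At the threshold of the study (a fold change above 1.5 with an unadjusted p below 0.05, from limma), 16 of 16 were called higher in anti-RGMa against naïve cord, where 12.5% of all probe sets were called higher, and 16 of 16 in isotype control against naïve cord, where 16.5% were. After Benjamini-Hochberg adjustment over all 34958 probe sets, the 16 passed in both comparisons, beside 17% and 21.4% of all probe sets. The median log2 fold change of the 16 was 5.56 in anti-RGMa and 5.83 in isotype control against naïve, and that of all probe sets was -0.06 in each. Both comparisons use the same naïve arrays and are not independent. In whole tissue, more cells that express a gene and more RNA per cell cannot be told apart.

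H2-Aa and H2-Ab1 encode the alpha and beta chains of I-A, the class II molecule of C57BL/6 mice. Of genes with more than 1 probe set, the brightest on average is described first, and levels are log2 signals throughout. H2-Aa (1435290_x_at) measured 14.12 at the lowest, 14.16 at the median and 14.64 at the highest in anti-RGMa arrays, 14.39, 14.02, 14.01, 13.93 and 14.54 in isotype control replicates 1 to 5, and 7.98, 8.24 and 8.92 (lowest, median, highest) in naïve arrays. The antibody groups overlapped, and the lowest EAE array lay 5.00 above the highest naïve array. The log2 fold change was 5.94 (SE 0.17, adjusted p = 2.62e-12, limma) in anti-RGMa and 5.86 (SE 0.17, adjusted p = 6.72e-12) in isotype control against naïve, that is 61.3-fold and 58-fold.

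H2-Ab1 (1450648_s_at) measured 13.05, 13.30 and 14.24 (lowest, median, highest) in anti-RGMa arrays, 13.71, 13.29, 13.17, 12.95 and 14.08 in the 5 isotype control arrays, and 7.89, 8.38 and 9.00 in naïve arrays. The antibody groups overlapped, and the lowest EAE array lay 3.95 above the highest naïve array. Its log2 fold change was 5.05 in anti-RGMa (SE 0.24, adjusted p = 4.45e-10, limma) and 5.07 in isotype control (SE 0.25, adjusted p = 7.39e-10) against naïve. The probe sets of both genes disagreed in the size of the increase. Over the 4 probe sets of H2-Aa it ran between 5.94 and 7.19 in anti-RGMa against naïve, and over the 3 of H2-Ab1 between 5.05 and 8.64. The largest, H2-Ab1 1425477_x_at, ranked 5 of 34958 by upward fold in anti-RGMa and 4 in isotype control, and its naïve arrays were dim, at 2.51 to 5.99. With an offset of 32 added to the signals it was 7.00 in place of 8.64, against 4.91 in place of 5.05 for the brightest probe set.

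H2-Eb1 encodes the beta chain of I-E, whose alpha chain gene, H2-Ea, is not expressed in mice of this strain. H2-Eb1 measured 13.53, 13.70 and 14.36 (lowest, median, highest) in anti-RGMa arrays, 13.99, 13.52, 13.68, 13.49 and 14.33 in isotype control arrays, and 7.77, 7.92 and 8.47 in naïve arrays. Its arrays of the antibody groups overlapped and lay at least 5.02 above all naïve arrays, with a log2 fold change of 5.79 (SE 0.17) in anti-RGMa and 5.81 (SE 0.18) in isotype control. H2-Ea served as a check on the strain. Its 3 probe sets stayed between 1.81 and 5.25 in all EAE arrays and overlapped with naïve arrays, and 0 passed in any comparison (limma, lowest unadjusted p = 0.069). H2-Eb2, a further beta chain gene whose promoter held the pair of boxes, gave 0.34 (adjusted p = 0.666) in anti-RGMa and 0.77 (adjusted p = 0.279) in isotype control against naïve, and was not called.

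Cd74, the invariant chain (chromosome 18, 60803849 to 60812652 in GRCm38.p6), had the largest log2 fold change when 1 probe set was taken per member gene. It measured 14.12, 14.14 and 14.51 (lowest, median, highest) in anti-RGMa arrays, 14.38, 13.98, 13.90, 13.96 and 14.46 in isotype control arrays, and 7.71, 7.93 and 8.66 in naïve arrays. The antibody groups again overlapped, and the gap between the lowest EAE and the highest naïve array was 5.24. The log2 fold change was 6.20 (SE 0.16, adjusted p = 8.04e-13, limma) in anti-RGMa and 6.10 (SE 0.16, adjusted p = 2.96e-12) in isotype control, 73.4-fold and 68.7-fold.

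**Figure D1:**
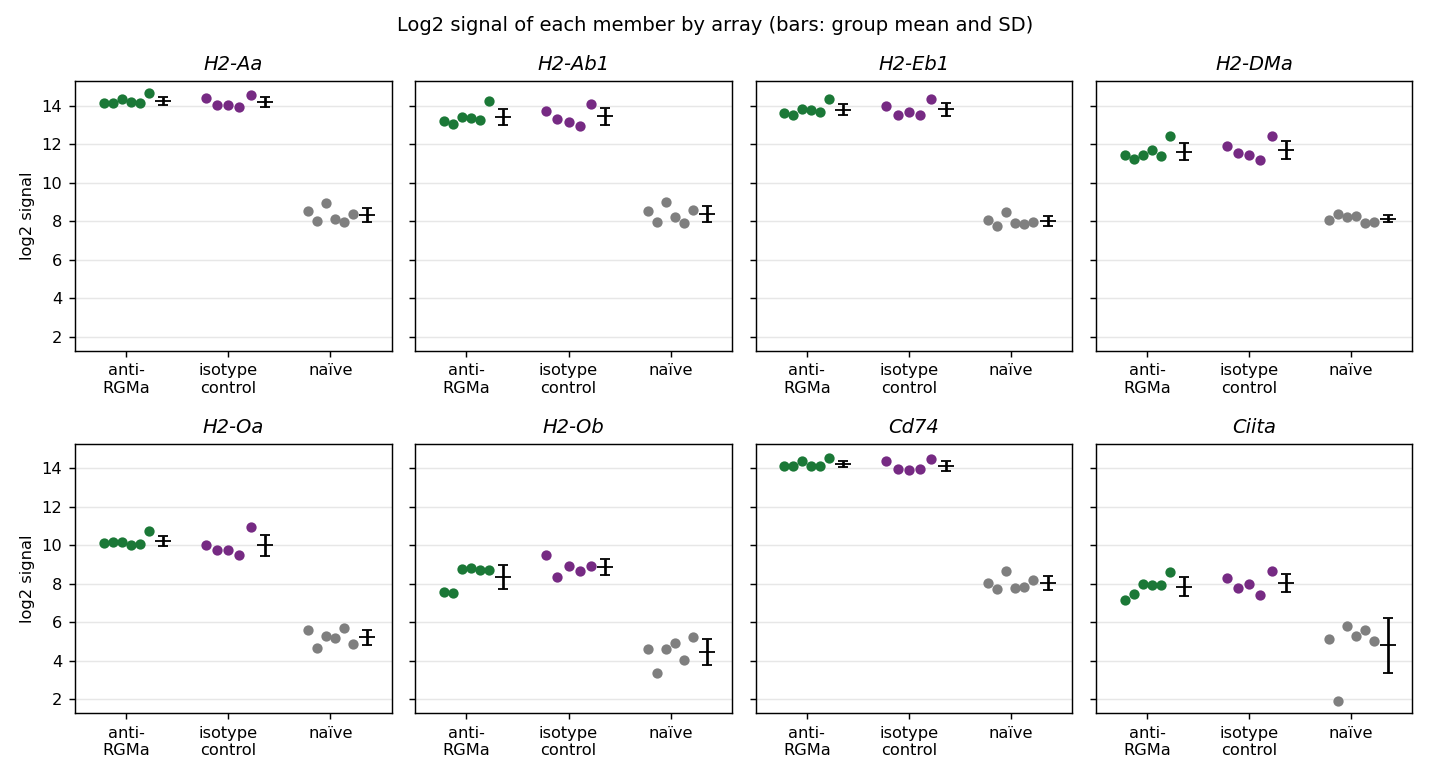
Log2 signal (y axis) of each member gene, 1 probe set per gene, in every anti-RGMa, isotype control and naïve array (points, in replicate order), with the group mean and SD beside them. In every panel all 11 EAE points lie above all 6 naïve points, and the anti-RGMa and isotype control points overlap.

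H2-DMa encodes the alpha chain of H2-DM, the catalyst of peptide exchange. H2-DMa (1422527_at) measured 11.24, 11.44 and 12.43 (lowest, median, highest) in anti-RGMa arrays, 11.92, 11.54, 11.44, 11.19 and 12.41 in isotype control arrays, and 7.90, 8.13 and 8.36 in naïve arrays. With this probe set the log2 fold change was 3.48 (SE 0.21, adjusted p = 7.79e-09, limma) in anti-RGMa and 3.57 (SE 0.22, adjusted p = 8.54e-09) in isotype control, 11.2-fold and 11.9-fold. These values were below those of the brightest probe sets of H2-Aa, H2-Ab1 and H2-Eb1. The second probe set of H2-DMa, 1459872_x_at, was dim in naïve arrays (0.68 to 5.13). It gave 5.33 and 5.89, above H2-Ab1 1450648_s_at (5.05 and 5.07), or 2.14 and 2.59 with an offset of 32. H2-DMb2, a beta chain of H2-DM, was not a member and was called in both comparisons, at 2.46 (SE 0.24) in anti-RGMa and 2.48 (SE 0.26) in isotype control against naïve.

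H2-Oa and H2-Ob encode the chains of H2-O, an inhibitor of H2-DM known mainly from B cells, thymic epithelium and some dendritic cells. H2-Oa measured 10.02, 10.15 and 10.75 (lowest, median, highest) in anti-RGMa arrays, 10.02, 9.78, 9.77, 9.49 and 10.94 in isotype control arrays, and 4.69, 5.26 and 5.72 in naïve arrays. H2-Ob measured 7.54, 8.70 and 8.83 in anti-RGMa arrays, 9.51, 8.34, 8.95, 8.66 and 8.95 in isotype control arrays, and 3.35, 4.64 and 5.23 in naïve arrays. In both genes the antibody groups overlapped and all EAE arrays exceeded all naïve arrays, by at least 3.78 for H2-Oa and 2.31 for H2-Ob. H2-Oa rose by 4.99 (SE 0.23, adjusted p = 3.38e-10, limma) in anti-RGMa and by 4.76 (SE 0.24, adjusted p = 9.43e-10) in isotype control. The log2 fold change of H2-Ob was 3.89 (SE 0.33, adjusted p = 2.75e-07) in anti-RGMa and 4.41 (SE 0.34, adjusted p = 9.23e-08) in isotype control. The probe set annotated to both H2-Ob and Gm20506, 1422201_at, was not tested. It averaged 6.74 in anti-RGMa, 6.76 in isotype control and 4.61 in naïve arrays. In that probe set the EAE arrays (lowest 5.82) overlapped with the naïve arrays (highest 5.96).

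Ciita, the transactivator (chromosome 16, 10480014 to 10531064), was called higher in both EAE groups with all 3 of its probe sets. Ciita (1421210_at) measured 7.17, 7.93 and 8.60 (lowest, median, highest) in anti-RGMa arrays, 8.29, 7.80, 8.01, 7.44 and 8.69 in isotype control arrays, and 1.91, 5.22 and 5.83 in naïve arrays. Naïve replicate 2 stood apart at 1.91, and the EAE arrays lay at least 1.34 above the naïve ones. The log2 fold change was 3.05 (SE 0.52, adjusted p = 0.000345, limma) in anti-RGMa and 3.24 (SE 0.55, adjusted p = 0.000154) in isotype control. A second probe set, 1421211_a_at, gave 5.02 and 5.39, and the third, 1447075_at, gave 2.92 and 3.37. In the third alone the groups touched, since naïve replicate 4 (5.18) exceeded anti-RGMa replicate 2 (5.12). With an offset of 32 the 3 probe sets gave 2.01, 3.03 and 1.17 in anti-RGMa, and 2.18, 3.38 and 1.5 in isotype control, against naïve, and all were still called.

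Most markers of the cells that carry class II were also called higher. Of 15 measured macrophage and monocyte markers, 14 were called higher in anti-RGMa and 15 in isotype control against naïve, where 14% and 18% of all genes were, with list means between 10.37 and 11.70 in anti-RGMa, 10.83 and 11.92 in isotype control and 6.79 and 7.26 in naïve arrays. Of 8 B cell markers, 7 were called higher in each comparison, with list means of 6.45 to 7.39, 6.93 to 8.19 and 4.46 to 5.36 in anti-RGMa, isotype control and naïve arrays. Of 8 dendritic cell markers, 5 and 7 were called higher (8.10 to 8.77, 8.51 to 8.95 and 6.37 to 6.99). The other in isotype control was Flt3, a growth factor receptor of dendritic cell precursors, which gave -0.42 in anti-RGMa and was called lower in isotype control, at -0.64 (SE 0.14, adjusted p = 0.00164, limma), where 9.12% and 15.5% of all genes were called lower. Of 9 homeostatic microglia markers 7 and 7 were called higher (9.62 to 9.81, 9.52 to 9.98 and 8.49 to 8.70). Their part in the increase of class II was not tested. The rise was not limited to these lists. Of 9 T cell markers, 7 were called higher in each comparison, and of 7 neutrophil markers, 6. Thy1 of the T cell list was called lower in isotype control, at -0.62. The cord's own neuronal and glial list lay at 12.70 to 13.25, 12.62 to 12.99 and 12.99 to 13.12 in the same 3 groups. This mean joins opposed changes. Of its 9 measured genes, 3 were called higher and 1 lower in anti-RGMa against naïve, beside 14% and 9.12% of all genes. In isotype control against naïve 1 was called higher and 4 lower, beside 18% and 15.5%. Signal of skeletal muscle genes stood out in isotype control replicates 3, 4 and 5 (list means 9.16, 13.12 and 9.39), against at most 7.40 in the other EAE arrays.

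No class II gene was called between anti-RGMa and isotype control cord. Of the 16 probe sets, 0 were called higher, where 1.42% of all probe sets were, and 0 lower, where 2.55% were. None had an unadjusted p under 0.05 (limma), and after adjustment 0 of all 34958 probe sets passed. The median log2 fold change of the 16 was -0.06, against 0.01 over all probe sets, and 5 of 16 were above 0. With the brightest probe set of each gene, the log2 fold change was 0.08 for H2-Aa (95% interval -0.29 to 0.45), -0.02 for H2-Ab1 (-0.56 to 0.51), -0.01 for H2-Eb1 (-0.39 to 0.37) and 0.10 for Cd74 (-0.25 to 0.44), so that for these 4 probe sets a difference beyond 0.56 in either direction lies outside the interval. Dimmer probe sets left more room, as H2-Aa 1443783_x_at at -0.48 (-1.84 to 0.87). The 4 bright probe sets lay at percentiles 99.2 to 99.8 of all probe sets in both EAE groups. Over the anti-RGMa arrays H2-Aa spanned 14.12 to 14.64 in its brightest probe set and 9.82 to 12.14 in 1443783_x_at. Whether the brightest signals are compressed, which would narrow their differences and intervals, was not tested.

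Ciita had the widest interval of the other members when 1 probe set was taken per gene. H2-DMa differed by -0.09 (95% interval -0.56 to 0.38), H2-Oa by 0.23 (-0.29 to 0.74) and Ciita by -0.20 (-1.36 to 0.96). The second probe set of H2-DMa, 1459872_x_at, gave -0.56 with a wider interval (-2.01 to 0.88). With 1 probe set per gene the largest difference was that of H2-Ob, at -0.52 (SE 0.34, -1.25 to 0.21, adjusted p = 0.506, limma), where anti-RGMa replicates 1 and 2 (7.59 and 7.54) lay below all isotype control arrays and the other 4 anti-RGMa arrays (8.70 to 8.83) lay among them. Without isotype control replicates 3, 4 and 5, which carried muscle signal, 0 members were called and the differences lay between -0.57 for H2-Ob and 0.33 for H2-Oa. The macrophage and monocyte list averaged 10.83 ± 0.47 in anti-RGMa (SD, n = 6) and 11.26 ± 0.50 in isotype control arrays (SD, n = 5). With this list mean as a covariate among the EAE arrays, H2-Oa gave 0.49, H2-Ab1 0.34, H2-DMa 0.28 and H2-Aa 0.27. Cd74 gave 0.26, H2-Eb1 0.25, Ciita 0.16 and H2-Ob -0.22. The unadjusted p of H2-Aa, Cd74, H2-Ab1 and H2-Oa was 0.0169, 0.0256, 0.0267 and 0.0457 (limma). None passed adjustment (adjusted p = 0.763 or more, limma), and 0 of the 16 probe sets were called. The share of all probe sets with such a p under this model was not counted. These values can therefore not be read as an excess in class II.

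**Figure D2:**
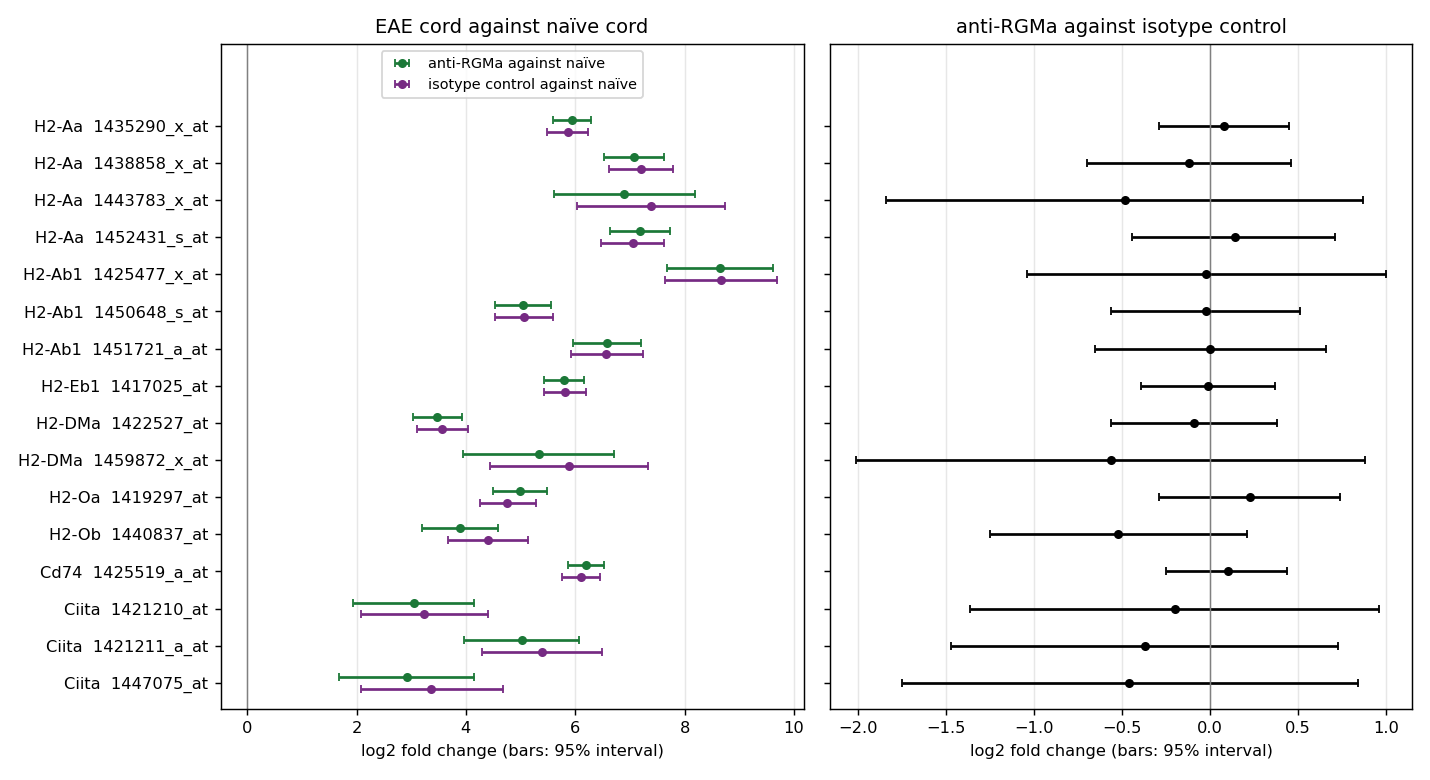
Log2 fold change with its 95% interval (x axis) of each of the 16 member probe sets (rows), in anti-RGMa and isotype control cord against naïve cord (left) and in anti-RGMa against isotype control cord (right). All intervals on the left lie above 0, with the largest values at H2-Ab1 1425477_x_at (8.64 and 8.66), and all intervals on the right include 0.

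Ratios of 2 members within an array were compared to ask whether the genes rose to the same extent. Of 21 comparisons (7 ratios in 3 pairs of groups), 11 had an adjusted p under 0.05 by an exact two-sided permutation test, all of them against naïve cord. The clearest shift in a pair with opposed roles was in H2-DMa over H2-Oa, catalyst over inhibitor chain. The log2 ratio was 1.38 ± 0.24 in anti-RGMa arrays (SD, n = 6), 1.70 ± 0.15 in isotype control arrays (SD, n = 5) and 2.89 ± 0.52 in naïve arrays (SD, n = 6). It was thus lower by 1.51 in anti-RGMa (exact permutation p = 0.00216, adjusted p = 0.00649) and by 1.19 in isotype control (exact permutation p = 0.00433, adjusted p = 0.0114) than in naïve cord, with no overlap of either EAE group (highest 1.68 and 1.90) with the naïve arrays (lowest 2.19). The smallest p that these group sizes allow is 0.00216. With an offset of 32 the difference shrank to -0.79 in anti-RGMa (adjusted p = 0.00455) and -0.48 in isotype control (adjusted p = 0.0341) by the same exact test. The ratio to the other inhibitor chain, H2-DMa over H2-Ob, did not pass. It differed from naïve cord by -0.41 in anti-RGMa (adjusted p = 0.409, exact permutation test) and by -0.84 in isotype control (adjusted p = 0.0699). With the offset these differences were 0.63 and 0.24. A shift of catalyst over inhibitor was thus seen for the H2-Oa chain alone.

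The ratio of H2-DMa over H2-Oa depended on the probe set of H2-DMa. When both of its probe sets were averaged, the difference was -0.59 (adjusted p = 0.459, exact permutation test) in anti-RGMa and -0.04 (adjusted p = 0.986) in isotype control against naïve. Between anti-RGMa and isotype control cord it was lower by 0.32 (exact permutation p = 0.0325, adjusted p = 0.0568) and did not pass, although it did when anti-RGMa replicate 4 or 6 or isotype control replicate 5 was left out (-0.37 each, adjusted p = 0.0417, 0.0455 and 0.04). The ratios of Cd74, H2-Aa and H2-Eb1 to H2-Ab1 were 1.15, 0.89 and 0.75 higher in anti-RGMa and 1.03, 0.79 and 0.73 higher in isotype control than in naïve cord. With the 3 probe sets of H2-Ab1 averaged, those of Cd74 and H2-Eb1 turned to -0.56 and -0.96 in anti-RGMa and -0.67 and -0.96 in isotype control, so that no order of these genes by their increase can be read from them.

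Across the 11 EAE arrays, members varied together from array to array, with 1 exception when all arrays were kept. Anti-RGMa replicate 6 and isotype control replicate 5 held the highest values of their groups in 7 of the 8 genes, H2-Ob being the other. Of 28 pairs of members, 22 had an adjusted p under 0.05 for Pearson's r (permutation test, 100000 resamples). Among H2-Aa, H2-Ab1, H2-Eb1 and Cd74, r was between 0.86 and 0.97. H2-DMa followed H2-Ab1 with r = 0.98 (rho = 0.95, adjusted permutation p = 0.00014), and 0.93 without the 2 arrays farthest from the median of H2-Ab1. The values of H2-Oa with H2-Ab1, H2-Eb1 and H2-DMa (r = 0.84, 0.85 and 0.81) rested on such arrays, since r was 0.40, 0.42 and 0.24 without the 2 farthest.

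Ciita varied with all 7 of the other members. It correlated most closely with H2-Eb1 (r = 0.89, adjusted p = 0.00056; rho = 0.88, adjusted p = 0.00462; permutation test, 7 pairs), and r was 0.88 with H2-Ab1, 0.87 with H2-DMa, 0.80 with H2-Aa, 0.71 with H2-Ob, 0.70 with Cd74 and 0.67 with H2-Oa (adjusted p at most 0.0237). For H2-Oa and Cd74 the rank correlation did not pass (rho = 0.42 and 0.62, adjusted p = 0.202 and 0.0558). Without anti-RGMa replicate 1 and isotype control replicate 5, the arrays farthest from the median of Ciita, r lay between 0.59 (H2-Ob) and 0.93 (H2-Ab1 and H2-Eb1). When the 2 arrays farthest from the median of the other gene were left out in their place, r was 0.07 with H2-Oa, 0.37 with Cd74 and 0.41 with H2-Ob, and between 0.52 and 0.75 with the other 4. Within the 6 anti-RGMa arrays r lay between 0.68 and 0.87, with an exact permutation p of 0.025 for H2-Eb1 and H2-Ab1, before adjustment.

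H2-Ob was the exception. Its r was 0.34 with H2-Aa, 0.44 with H2-Ab1, 0.49 with H2-Eb1, 0.44 with H2-DMa and 0.30 with Cd74, and 0.04 with H2-Oa, its partner chain (adjusted permutation p = 0.139 or more for each). H2-Oa in contrast followed H2-Aa (r = 0.89) and Cd74 (r = 0.85). The exception depended in part on which arrays were kept. Without the 2 arrays farthest from the median of the other gene, r of H2-Ob changed. It was 0.61 with H2-Ab1, 0.69 with H2-Eb1 and 0.60 with H2-DMa, above the values of H2-Oa with the same genes. With H2-Aa it was 0.34 and with H2-Oa -0.28. H2-Ob tracked the mean of the B cell markers (r = 0.93, rho = 0.95, permutation p = 1e-05, the smallest these resamples can give, adjusted p = 0.00048 over 48 pairs of a member and a marker list) and that of the dendritic cell markers (r = 0.95, rho = 0.80, adjusted p = 0.00128). Leaving out the 2 arrays farthest from the median of the list gave 0.88 and 0.85, and deviations from the group means gave 0.91 and 0.94. For H2-Oa, r was 0.01 with the B cell list and 0.15 with the dendritic cell list (adjusted permutation p = 0.987 and 0.823). Anti-RGMa replicates 1 and 2 were lowest in both H2-Ob and the B cell list (6.45 and 6.59), and isotype control replicate 1 was highest in both (9.51 and 8.19).

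**Figure D3:**
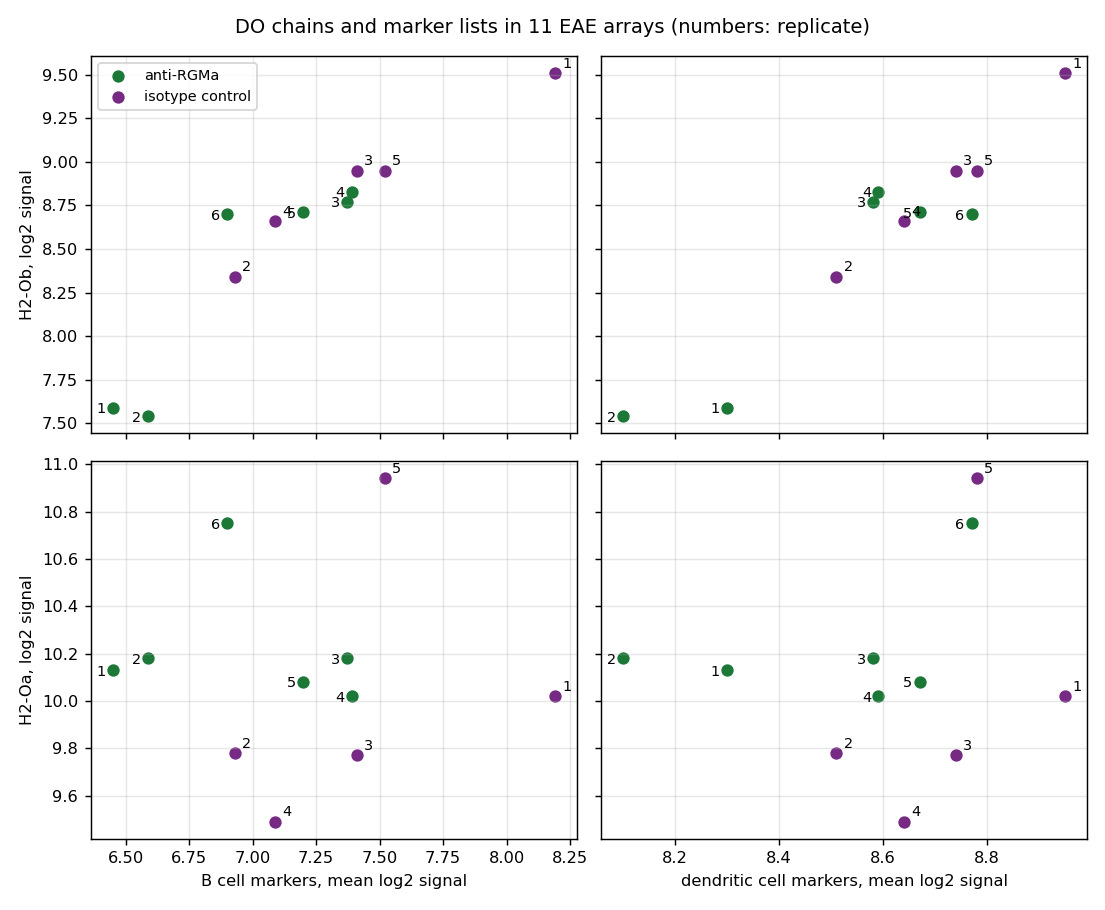
Log2 signal of H2-Ob (top) and H2-Oa (bottom) against the mean log2 signal of the B cell markers (left) and the dendritic cell markers (right), with 1 point per EAE array and its replicate number. The points of H2-Ob climb with both lists (r = 0.93 and 0.95) and those of H2-Oa do not (r = 0.01 and 0.15).

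Ciita also correlated with the dendritic cell list (r = 0.75, adjusted permutation p = 0.0308, rho = 0.83, adjusted p = 0.0322). With the T cell and macrophage lists other members passed. H2-DMa (r = 0.90, adjusted permutation p = 0.00128), H2-Ab1 (0.87, 0.00156), H2-Eb1 (0.82, 0.0145), Ciita (0.82, 0.0145) and H2-Aa (0.78, 0.0229) correlated with the T cell markers, and H2-DMa, H2-Ab1, Ciita and H2-Eb1 correlated with the macrophage and monocyte markers (r between 0.79 and 0.86). By rank, H2-DMa and H2-Ab1 passed with the T cell list (rho = 0.90 and 0.85, adjusted permutation p = 0.0084 and 0.0286), and no member passed with the macrophage and monocyte list (adjusted p = 0.051 or more). No member passed with the homeostatic microglia or the neutrophil list. In all, 12 of the 48 pairs had an adjusted p under 0.05. The arrays share groups and tissue composition, and what the correlations reflect was not tested.

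**Figure D4:**
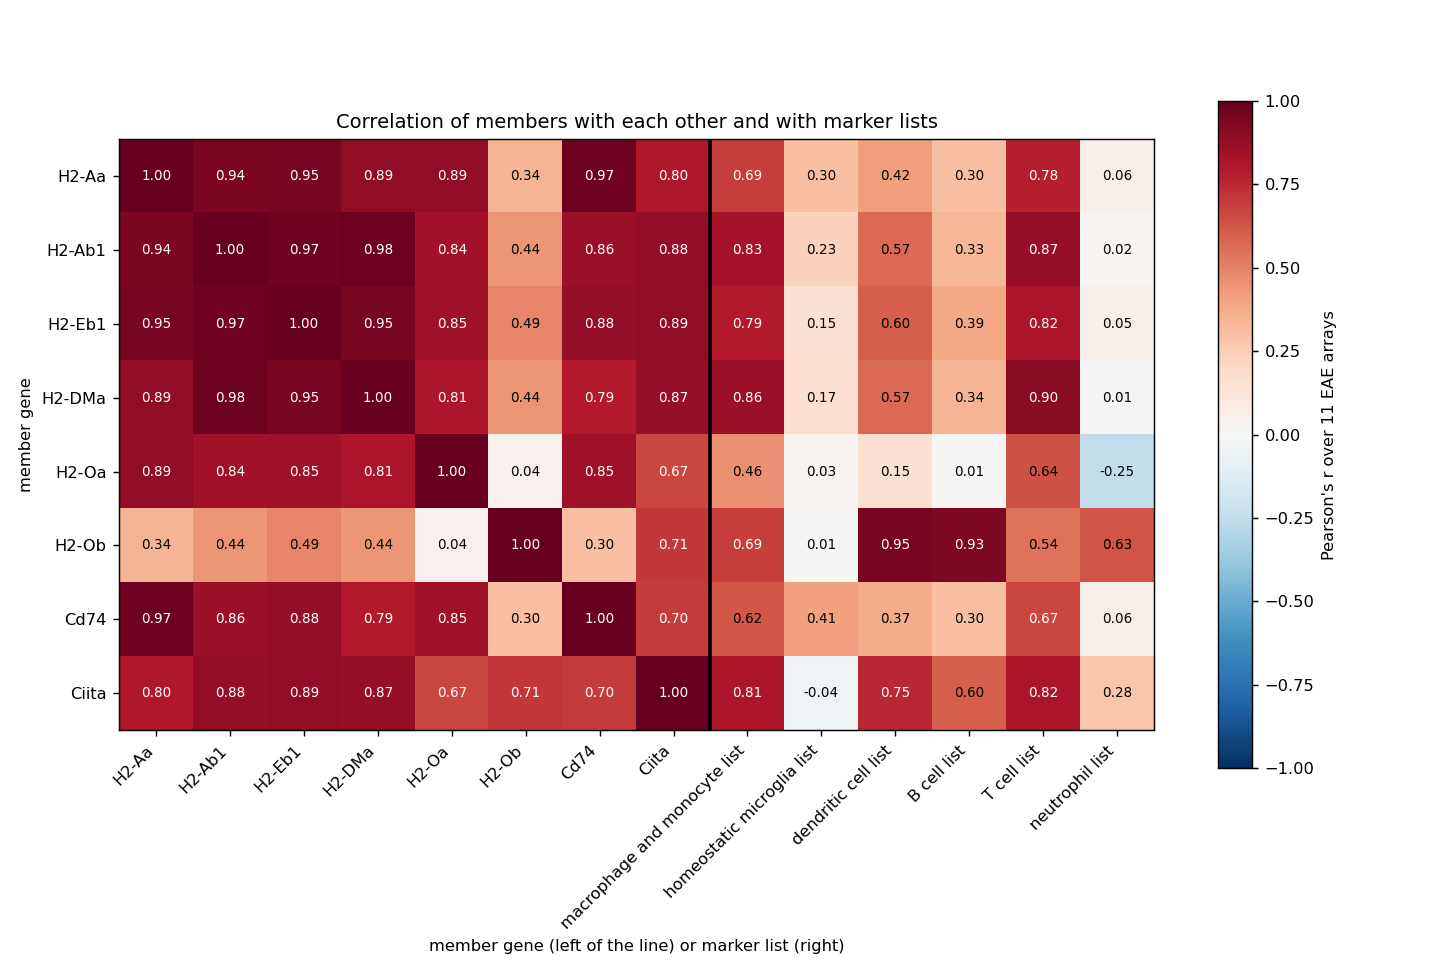
Pearson's r over the 11 EAE arrays between member genes (left of the line) and between members and the mean of 6 marker lists (right), with r printed in each cell and shown by colour. H2-Ob is pale against H2-Aa, H2-Oa and Cd74 (0.34, 0.04 and 0.30) and dark against the dendritic cell and B cell lists (0.95 and 0.93).

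Outside the members, the 10093 genes that averaged 8 or more on the log2 scale in EAE arrays were ranked by how closely they followed the class II pattern, as a description. The mean of H2-Aa, H2-Ab1, H2-Eb1 and Cd74 was followed most closely by Ly6i (r = 0.964), Clcn7 (0.961), C1qc (0.961), Hpse (0.955) and Lgals3bp (0.951). Clcn7 encodes a lysosomal chloride transporter, C1qc a chain of complement C1q and Hpse heparanase. Ciita was followed by Tlr4 (0.934), the receptor of bacterial lipopolysaccharide, Cd1d1 (0.928), which presents lipids, Rasa4 (0.927), Vcam1 (0.926), an adhesion molecule of endothelium, and Eif2ak4 (0.924).

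Genes of the class II pathway outside the members rose in part. Of 10 genes that process antigen or the invariant chain, 9 were called higher in anti-RGMa and 9 in isotype control against naïve, beside 14% and 18% of all genes, with a median log2 fold change of 1.46 and 1.47, against -0.03 and -0.04 over all genes. Ifi30, a reductase that opens disulphide bonds of antigens in lysosomes, had the largest increase, at 4.97 (SE 0.24) in anti-RGMa and 5.28 (SE 0.25) in isotype control. Ctss, the protease that trims the invariant chain, rose by 2.53 (SE 0.12) and 2.51 (SE 0.13), and the cathepsins Ctsh by 2.86 and 3.11 and Ctsz by 2.29 and 2.07. Cst3, an inhibitor of such proteases, gave 0.29 and 0.07 and was the gene not called.

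The IFN-γ route to Ciita rose at its ligand and its transcription factors. Of 8 measured genes, 6 were called higher in anti-RGMa and 7 in isotype control against naïve, beside the same 14% and 18% of all genes. Ifng rose by 4.97 (SE 0.69) and 4.82 (SE 0.72), Irf8, a transcription factor of myeloid cells, by 4.34 and 4.50, Irf1, which acts on a promoter of Ciita, by 3.29 and 3.41, and Socs1, an inhibitor of the receptor's kinases, by 2.97 and 3.08. Ifngr1, a chain of the IFN-γ receptor, rose by 1.70 and 2.05, and Jak1 gave 0.07 and 0.08. Of 7 genes for the factors that bind the X and Y boxes, 1 was called higher in each comparison, a share near the 14% and 18% of all genes. It was Nfya, a subunit of the Y box factor, at 1.10 (SE 0.13) in anti-RGMa and 1.23 (SE 0.14) in isotype control. Nfyb (-0.46 and -0.50) and Rfxap (-0.44 and -0.56) had adjusted p under 0.05 (limma) but stayed within 1.5-fold, Nfyc gave 0.09 and 0.20, and the median of the 7 was -0.07 in both comparisons.

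Of 7 genes for the turnover of class II and the partners of the class II molecule or CD74, 4 were called higher in each EAE group against naïve, beside 14% of all genes in anti-RGMa and 18% in isotype control. Lag3, an inhibitory receptor of T cells for class II, rose by 3.43 in anti-RGMa and 3.14 in isotype control, Cd44, a co-receptor of CD74, by 2.69 and 3.25, and Marchf1, a ligase that removes class II from the surface, by 1.47 and 1.82. Cd4, the co-receptor of T cells for class II, rose by 1.86 (SE 0.35) in anti-RGMa and by 2.95 (SE 0.37) in isotype control. Over these lists of the pathway, Cd4 was the only gene called between the antibody groups, with 0 called higher, where 1.23% of all genes were. It was lower by 1.09 on the log2 scale in anti-RGMa than in isotype control cord (SE 0.37, unadjusted p = 0.00898), where 2.73% of all genes were called lower, and it did not pass the adjustment (adjusted p = 0.28, limma). Of the 9 measured T cell markers, a list without Cd4, 0 were called in either direction, and their median log2 fold change was -0.01.

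**Figure D5:**
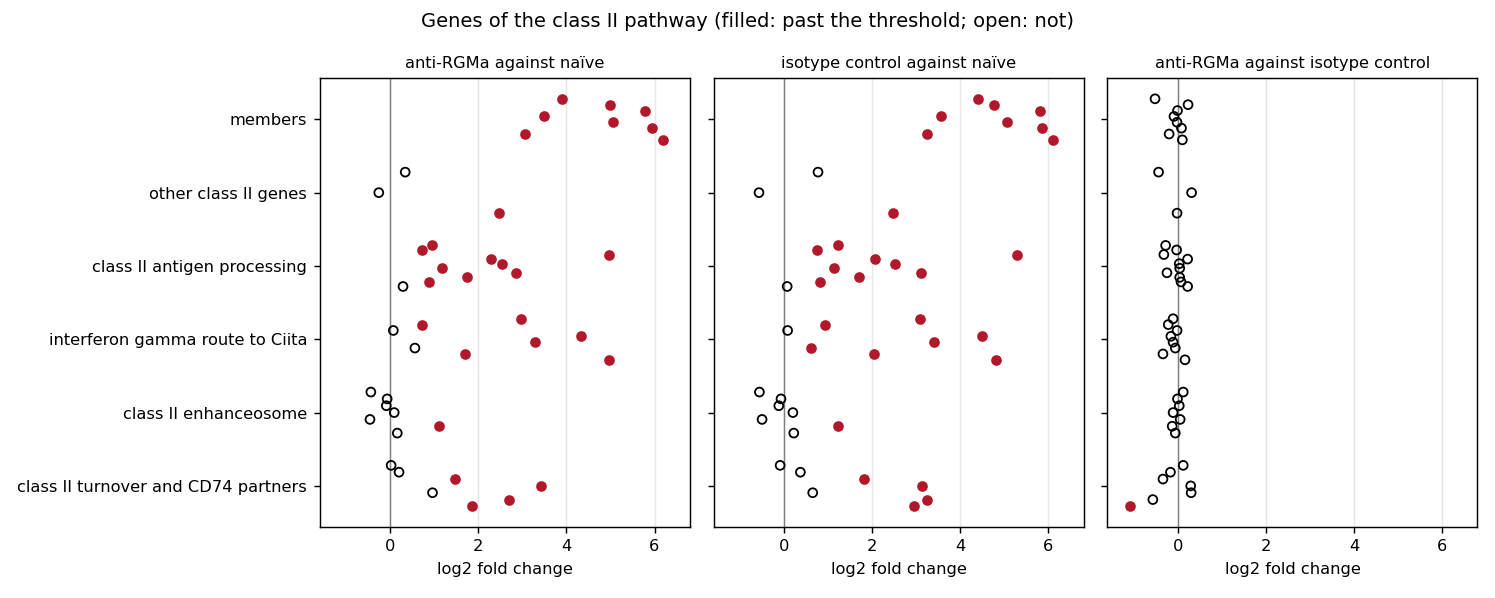
Log2 fold change (x axis) of each gene of the class II lists (rows), 1 probe set per gene, in anti-RGMa against naïve, isotype control against naïve and anti-RGMa against isotype control cord, with filled points for genes called at the study's threshold. Members, processing genes and the IFN-γ route lie to the right of 0 in the first 2 panels, the enhanceosome genes lie near 0 except Nfya, and Cd4 is the filled point at -1.09 in the last.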

How the data were processed

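Mouse spinal cord RNA was measured on 17 arrays, 1 per sample, grouped by the treatment given in the labels. The deposited values are linear signal intensity, which the authors computed with MAS5 in Microarray Suite 5.0 and scaled globally. The submitters' processing notes also name affy. With 2% of values trimmed at each end, all arrays averaged 500.0. The lowest signal was 0.0118 and the highest 44408. Detection calls were not used here. Of 45101 probe sets, 34958 have 1 gene in the platform annotation, and 34754 of these were matched by gene ID to RefSeq (GRCm38.p6). The 932 annotated to several genes and the 9211 annotated to none were not tested.

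The log2 of each signal, without offset or filter, was fitted with limma 3.58.1 (R 4.3.3) in a single model of all 3 groups without a block, followed by eBayes. The study also used limma, and its threshold for a change was adopted. Within-array ratios were compared by exact permutation, and correlations by permutation with 100000 resamples (scipy 1.17.1, numpy 2.4.6). In simulated data for anti-RGMa against isotype control over 34958 probe sets, 80% of probe sets changed by 1 on the log2 scale passed the study's threshold and 96% of those changed by 2. In the same simulation 755 unchanged probe sets passed that threshold too. After adjustment 63% and 82% of the changed probe sets passed, and 4 unchanged ones. The members, gene lists and tests were chosen with earlier results of these data known, and the correlations with marker lists were added after values had been seen. Named genes were all members, the 4 genes of each pathway list with the smallest p between isotype control and naïve, any gene called between the antibody groups, and H2-Ea. Ifng, Cst3, Jak1, Flt3 and H2-Eb2 were named after their values were seen. Some genes of the lists were not analysed here, and counts are given over the genes measured. The labels do not say more of the animals, so that p-values measure the spread between these samples. Precision is limited by the number of arrays. Alternatives were other scalings, offsets, filters, variance models and covariates, and each array left out.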

Additional observations from a re-analysis of the deposited data

Results flagged for a closer look

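Of 48 groups of values (16 probe sets in 3 groups of samples), 7 held an array that stood apart from the others of its group by Dixon's test, where chance gives about 1 in 20 groups. In 4 of the 7 the array was anti-RGMa replicate 6, which was the highest of its group, at 12.14 in H2-Aa 1443783_x_at, 13.54 in H2-Ab1 1425477_x_at, 14.24 in H2-Ab1 1450648_s_at and 10.75 in H2-Oa. The other 3 were naïve arrays. Replicate 5 was the lowest in H2-Aa 1443783_x_at at 0.43, replicate 4 the highest in H2-DMa 1459872_x_at at 5.13, and replicate 2 the lowest in Ciita 1421210_at at 1.91.

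Probe sets annotated to both H2-DMb1 and H2-DMb2, the beta chain genes of H2-DM, were outside the comparisons because they do not name 1 gene. Their lowest EAE array exceeded the highest naïve array by 3.00 on the log2 scale in 1418638_at and by 4.05 in 1449580_s_at.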

How the results depend on the processing

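Against naïve cord, every member probe set tested was called in each comparison under every setting tried. The number tested was 16, except 14 once probe sets averaging below 6 were removed, and with 1 probe set per gene 8 for anti-RGMa and 8 for isotype control. The filter took the mean over all arrays. Members dim in naïve cord could pass it through their EAE arrays, as H2-Aa 1443783_x_at, with a naïve mean of 3.64. The filtered count is therefore no separate evidence of an increase. Leaving out each array in turn gave 16 in both. Between anti-RGMa and isotype control cord 0 were called under every setting except with the replicate number as a block, where 1 fell, H2-Ob, at -0.63 (adjusted p = 0.261, limma). The labels do not say whether the numbers pair the mice. The correlations of same-numbered deviations ran between -0.06 and 0.07 over 16 pairs, and 0 exceeded 0.1. They show no sign of a pairing but cannot exclude it. The block changed no other call.

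Differences near 0 between the antibody groups changed sign. H2-Aa was 0.00 after quantile normalization, and with arrays centred on the median H2-Ab1 was 0.00 and H2-Eb1 0.01. The macrophage covariate gave 0.34 for H2-Ab1, 0.25 for H2-Eb1, 0.28 for H2-DMa and 0.16 for Ciita, and H2-Eb1 was 0.03 without isotype control replicates 3, 4 and 5. Leaving out 1 array gave -0.19 to 0.13 for H2-Ab1, -0.12 to 0.12 for H2-Eb1 and -0.25 to 0.09 for H2-DMa.

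The count of 11 ratios was 9 to 12 with 1 array left out and 3 with the probe sets of a gene averaged. That averaging turned H2-DMa over H2-Ob to 0.51 in anti-RGMa and 0.32 in isotype control against naïve, Cd74 over H2-Ab1 to -0.56 and -0.67, H2-Eb1 over H2-Ab1 to -0.96 and -0.96, and H2-Aa over H2-Ab1 to -0.08 between the antibody groups. An offset of 32 turned H2-DMa over H2-Ob to 0.63 and 0.24. H2-Eb1 over H2-Ab1 between the antibody groups was -0.02 after quantile normalization and -0.02 to 0.07 with 1 array left out. The number of members that correlated with Ciita, 7, was 5 to 7 with 1 array left out. Except where probe sets were averaged, the cause of these shifts was not tested. Fold changes of probe sets dim in naïve cord depend most on the offset, as H2-DMa 1459872_x_at, at 5.33 without it and 2.14 with it in anti-RGMa.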
